A study of Mus musculus with 4 samples.

Results

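The genes described here are 10 mouse genes that act downstream of Notch receptors or tune them. They are the transcriptional repressors Hes1, Hes5, Hes6, Hey1, Hey2 and Heyl, the feedback inhibitor Nrarp, and the Fringe glycosyltransferases Lfng, Mfng and Rfng. They were chosen by name, and every probe set that the platform annotation pairs with one of them alone was taken, which gave 17 probe sets for these 10 of the 18194 genes named on the array. The mutant arrays held RNA of whole kidneys from Wnt4 null mutant embryos (allele Wnt4tm1Amc, strain field 129), with 12 kidneys pooled per array. The arrays of the other genotype held RNA of whole wild-type kidneys (strain field CD-1), with 2 kidneys pooled per array. Each genotype had 2 arrays, all kidneys were taken at stage E14.5 (Theiler stage 22), and sex was not known. Genotype, stated strain and pool size changed together and cannot be told apart. The protocol text, identical for every array but for the pool, speaks of CD-1 matings only. Nothing in the labels ties a pool to its own litter. The limma p-values rest only on how far the pools of a genotype differed, at the probe set itself and at others of similar signal.

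Notch receptors are cut after they bind a Delta or Jagged ligand on a neighbouring cell, and the freed intracellular part joins the DNA-binding protein RBPJ and Mastermind to switch on target genes. Most Hes and Hey genes are among the best known of these targets, and they encode basic helix-loop-helix repressors. Nrarp is another target, and its protein binds the Notch intracellular part and lowers its activity. Fringe enzymes add a sugar to the receptor and change which ligands it answers to. In the mouse kidney Wnt4 is needed for mesenchyme to form the renal vesicle, from which the nephron epithelium grows, and Notch signalling is needed afterwards for podocyte and proximal tubule fates. The comparison was therefore made to find genes expressed in the renal vesicle and in the structures that form from it.

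Values are the deposited signal intensities, which are linear, and differences are on the scale log2(signal + 16), mutant minus wild-type. A probe set was tested if its mean lay above the lowest 40% on the array, which kept 27022 probe sets and 15 of the 17 member probe sets. The test was limma with Benjamini-Hochberg adjustment over all tested probe sets, two-sided, and a gene is said to have fallen or risen only where its adjusted p was under 0.05. Wnt4 itself read 406.4 and 271.8 in mutant kidneys, against 1885 and 1770 in wild-type kidneys. Of the listed markers of the renal vesicle and its derivatives, 11 of 12 tested were lower in mutant kidneys and 0 higher by limma. At an unadjusted p under 0.05, 12 were lower and 0 higher. That list holds Wnt4 itself and the Notch ligand genes Dll1 and Jag1. It was chosen with earlier results of these data known, so its count is a description. Bmp2 of that list had a mutant mean of 57.03 and passed the filter on low values only through its wild-type arrays. The arrays had been scaled to one trimmed mean before deposit. The transferrin receptor control gave 3' to 5' signal ratios of 5.67 and 6.43 on the mutant arrays, against 4.71 and 5.10 on the wild-type arrays. The Gapdh control gave 0.753 and 0.744 on the mutant arrays, against 0.777 and 0.750 on the wild-type arrays. The actin control gave 1.56 and 1.54 on the mutant arrays, against 1.59 and 1.43 on the wild-type arrays. The part of these ratios in the results was not tested.

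Hey1, Nrarp and Hes5 were lower in mutant kidneys, and none of the other 7 genes passed the test at its brightest probe set. Of the 15 tested member probe sets, limma called 4 lower and 0 higher, while 5.39% of all tested probe sets were called lower and 5.41% higher. At an unadjusted p under 0.05, 9 of the 15 were lower and 0 higher, against 13.4% and 12.3% of all tested probe sets. The mutant and wild-type values did not overlap at 12 of the 15, against 54.1% of all tested probe sets. Of the 12, 11 were lower and 1 was higher in mutant kidneys, against 28.0% and 26.1% of all tested probe sets. The median log2 difference was -0.47 over the 15 member probe sets and -0.01 over all tested probe sets. Hes5 passed the filter on low values only through its wild-type arrays, and without it 3 of 14 probe sets were called lower, with a median of -0.39. In RNA of whole kidneys, fewer cells of a type and less RNA per cell cannot be told apart.

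Most markers of proximal tubule, podocytes and stroma passed the test in the same comparison. Of 6 proximal tubule markers, 5 were lower and 0 higher by limma (5 lower and 0 higher at an unadjusted p under 0.05), with a median log2 difference of -3.41. Their summed signal was 634.2 and 697.6 in mutant kidneys, against 6179 and 6391 in wild-type kidneys. Hnf4a, Slc34a1, Cubn and Lrp2 had mutant means of 78.42, 50.13, 22.21 and 85.83, below the lowest mean level kept, 94.2. They passed the filter only through their wild-type arrays, so the count of lower proximal tubule markers is a description. Of 5 tested podocyte markers, 4 were lower and 0 higher (5 lower and 0 higher at an unadjusted p under 0.05), with a median of -1.53 and sums of 3476 and 3228 in mutant kidneys, against 7347 and 6962 in wild-type kidneys. Of 6 stromal markers, 4 were higher and 0 lower (0 lower and 4 higher at an unadjusted p under 0.05), among them Foxd1, a forkhead gene of cortical stroma (3.08-fold), and the receptor gene Pdgfra (2.80-fold). The sums of the 6 were 37670 and 37880 in mutant kidneys, against 26700 and 23600 in wild-type kidneys. Most markers of nephron progenitors and ureteric bud did not pass. Of 6 progenitor markers, 1 was lower and 1 higher by limma (also at an unadjusted p under 0.05), with a median of 0.13. Of 7 ureteric bud markers, 1 was lower and 0 higher (3 lower and 0 higher at an unadjusted p under 0.05), with a median of -0.32. None of these markers was at 0, and the part of each cell type in the values of Hey1, Nrarp and Hes5 was not tested.

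**Figure D1:**
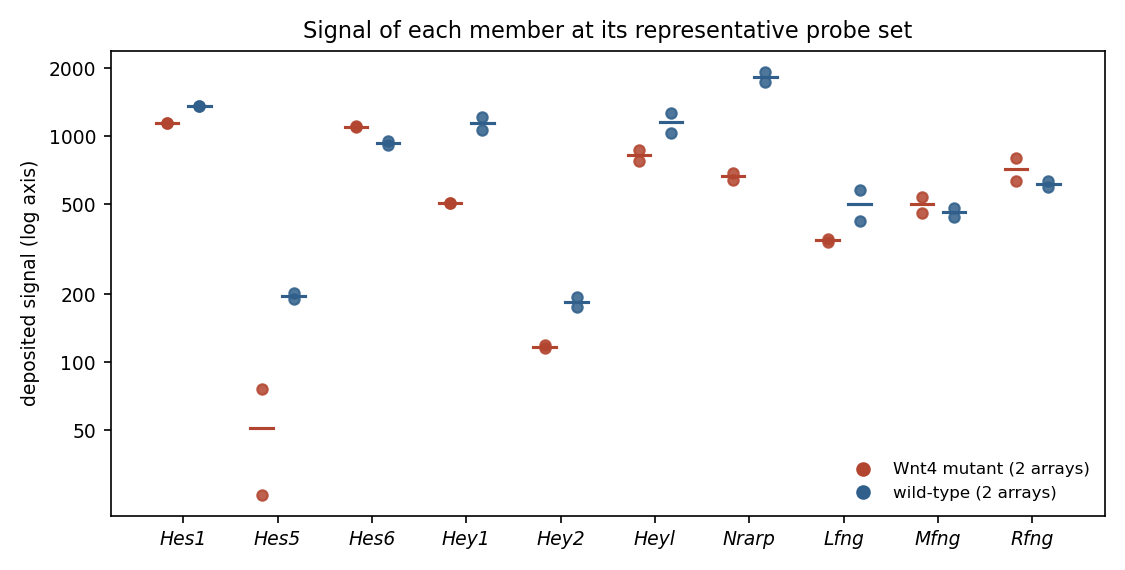
Deposited signal (log axis) of each of the 10 genes at its brightest tested probe set, with Wnt4 mutant arrays on the left and wild-type arrays on the right of each pair; points are arrays and bars are group means (n = 2 each). Nrarp, Hey1 and Hes5 show the widest gaps, while Mfng and Rfng overlap between genotypes; levels of different probe sets are not comparable with each other.

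RefSeq promoter windows, from 250 bases before to 50 bases after an annotated start, were at hand for 6 of the 10 genes. The windows of Hes5, Hey2 and Lfng are shown because each holds 2 copies of TGGGAA, the core of the RBPJ site, and that of Nrarp because the gene fell and its window holds none. Capitals mark TGGGAA or, on the other strand, TTCCCA; sequences run 5′ to 3′ on the strand of the gene, build GRCm38.p6.
Hes5, chr4:154960673-154960972, plus strand: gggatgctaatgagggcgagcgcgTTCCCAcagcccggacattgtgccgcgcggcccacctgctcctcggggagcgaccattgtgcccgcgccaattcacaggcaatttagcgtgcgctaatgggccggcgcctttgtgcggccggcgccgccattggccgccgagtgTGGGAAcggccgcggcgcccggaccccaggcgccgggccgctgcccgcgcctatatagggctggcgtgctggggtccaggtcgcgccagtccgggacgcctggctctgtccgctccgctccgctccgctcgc
Hey2, chr10:30842734-30843033, minus strand: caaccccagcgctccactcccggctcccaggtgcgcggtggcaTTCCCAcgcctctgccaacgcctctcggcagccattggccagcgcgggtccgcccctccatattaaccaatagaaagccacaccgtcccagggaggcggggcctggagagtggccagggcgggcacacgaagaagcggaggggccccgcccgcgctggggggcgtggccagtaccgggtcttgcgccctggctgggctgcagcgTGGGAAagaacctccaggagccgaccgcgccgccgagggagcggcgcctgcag
Lfng, chr5:140607091-140607390, plus strand: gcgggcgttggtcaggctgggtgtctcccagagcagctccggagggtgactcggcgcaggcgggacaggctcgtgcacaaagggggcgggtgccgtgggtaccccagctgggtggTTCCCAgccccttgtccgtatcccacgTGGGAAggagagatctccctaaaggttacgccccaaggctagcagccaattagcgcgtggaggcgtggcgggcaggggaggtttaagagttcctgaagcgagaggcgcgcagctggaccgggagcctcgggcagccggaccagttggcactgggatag
Nrarp, chr2:25180508-25180807, plus strand: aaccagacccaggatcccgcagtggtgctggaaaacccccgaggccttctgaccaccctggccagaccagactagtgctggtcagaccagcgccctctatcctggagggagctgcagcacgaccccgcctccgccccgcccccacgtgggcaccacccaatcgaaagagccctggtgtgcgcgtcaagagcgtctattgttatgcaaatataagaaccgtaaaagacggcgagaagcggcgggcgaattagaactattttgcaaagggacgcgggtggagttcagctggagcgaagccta
In the Hes5 window the copies begin 226 and 82 bases before the start, on opposite strands. In that of Hey2 they begin 207 and 3 bases before it, and in that of Lfng 135 and 108 bases before it, in both genes again on opposite strands. Over all 32851 mouse windows of this length, 25.6% hold TGGGAA on either strand at least once and 3.79% at least 2 times. The longer form GTGGGAA was added after the windows were seen and contains TGGGAA. Of all windows, 6.38% hold this longer form at least once and 0.256% at least 2 times. It occurs 2 times in the Hes5 and the Hey2 window and once in that of Lfng. CACNAG, the N box that Hes proteins bind, occurs in 42.5% of all windows and at least 2 times in 11.3%. It occurs 2 times in the Nrarp window, once in that of Lfng and of Rfng, and 2 times in 1 of the 2 Hes6 windows. It does not occur in the other Hes6 window or those of Hes5 and Hey2. The 2 Hes6 windows and the Rfng window hold no TGGGAA. Hes1, Hey1, Heyl and Mfng had no window here. A match describes the letters of a window and is not evidence of binding.

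Among the Hey genes, Hey1 fell while Hey2 and Heyl did not pass the test. Hey1 encodes a repressor of the Hairy-related type with a YRPW motif near its end and is a direct Notch target in many tissues. At its single probe set (1415999_at) it read 506.4 and 508.9 in mutant kidneys, against 1219 and 1066 in wild-type kidneys. The mutant arrays differed by far less than the wild-type arrays, and the groups lay well apart. The means were 507.6 ± 1.84 in mutant and 1143 ± 108 in wild-type kidneys (SD, n = 2 each), a log2 difference of -1.14 ± 0.13 (SE), which is 2.21-fold lower (limma adjusted p = 0.00112). It was the 348th smallest p of all tested probe sets. The call held under all 15 alternatives tried, with log2 differences from -1.24 to -1.05 and adjusted p from 2.99e-05 to 0.0313.

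Hey2, a relative with known roles in heart and vessels, had a low signal. It read 115.3 and 119.5 in mutant kidneys, against 193.7 and 176.0 in wild-type kidneys. Mutant values were below both wild-type values, by a log2 difference of -0.59 with a 95% interval from -1.17 to -0.01. The unadjusted p was 0.0482 and the limma adjusted p 0.191, so the call was not made. Its SE was 0.254 with the intensity trend and 0.123 without it. Without the trend limma gave an unadjusted p of 0.00621 and an adjusted p of 0.0897, again not called.

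Heyl, the third Hey gene, is expressed in smooth muscle of vessels and in muscle precursors as well as in other tissues of the mouse. It had 3 tested probe sets, and all of them were lower in mutant kidneys without overlap and without passing the test. At the brightest (1419302_at) it read 780.0 and 869.4 in mutant kidneys, against 1272 and 1039 in wild-type kidneys. The log2 difference was -0.47 with an interval from -0.78 to -0.17 and an adjusted p of 0.0593, just over the threshold. At 1419303_at it read 286.1 and 243.1 in mutant kidneys, against 413.1 and 360.8 in wild-type kidneys (log2 difference -0.52, adjusted p = 0.118 by limma). The third (1438886_at) read 604.9 and 601.9 in mutant kidneys, against 838.2 and 670.4 in wild-type kidneys (log2 difference -0.31, adjusted p = 0.230 by limma). The 3 probe sets share a gene and are no replicates of each other. Without wild-type replicate 2, the dimmer wild-type array at each of them, the brightest passed with a log2 difference of -0.62 and a limma adjusted p of 0.00772. Without wild-type replicate 1 its log2 difference was -0.33 (adjusted p = 0.151) and that of the third probe set was -0.15 (adjusted p = 0.643).

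Markers of vessel cells are given beside the Hey genes, which such cells can express. Of 10 endothelial markers, 3 were lower (Emcn, Plvap and Cldn5) and 0 higher by limma, with 4 lower and 0 higher at an unadjusted p under 0.05. Their summed signal was 9726 and 10170 in mutant kidneys, against 12910 and 12660 in wild-type kidneys. The median log2 difference of the 10 was -0.26. The pan-endothelial gene Pecam1 read 1107 and 948.0 in mutant kidneys, against 1048 and 1010 in wild-type kidneys, so its groups overlapped. Its log2 difference of -0.006 was the smallest of the 10, and it falls outside the rule by which genes were named. Of 6 tested smooth muscle and mural markers, 3 were lower (Acta2, Tagln and Rgs5) and 0 higher by limma, with 4 lower and 0 higher at an unadjusted p under 0.05. Their sums were 7294 and 6287 in mutant kidneys, against 8611 and 9729 in wild-type kidneys, and their median log2 difference was -0.63. None of the markers of these lists was at 0, and Cnn1 alone lay below the filter. The part of vessel cells in the Hey values was not tested.

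**Figure D2:**
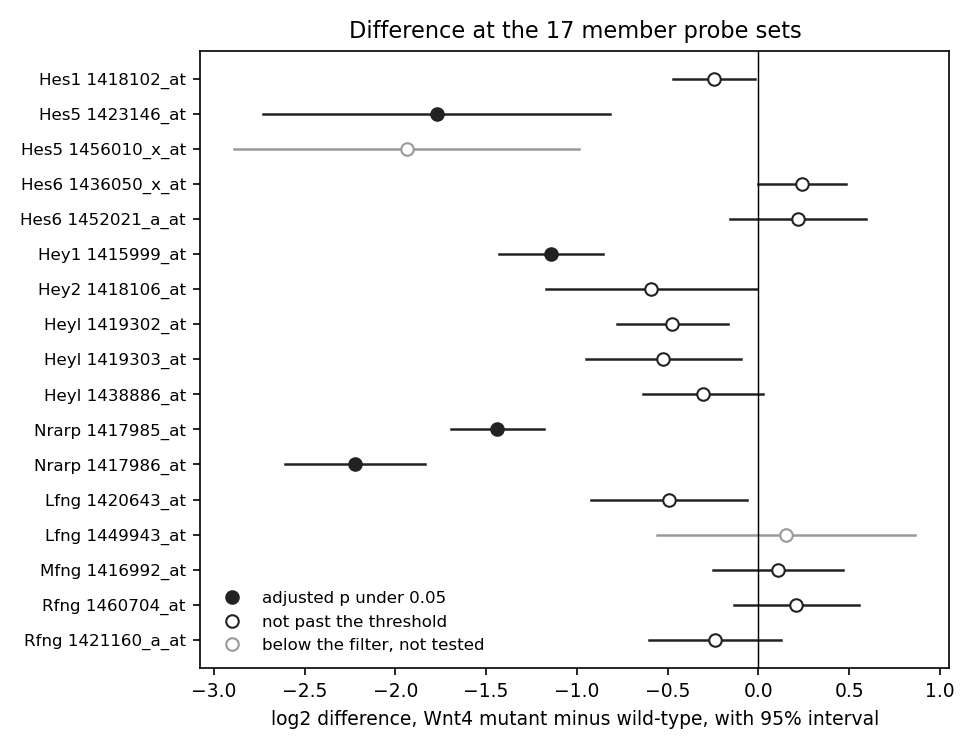
Log2 difference, Wnt4 mutant minus wild-type, with its 95% interval from limma at each of the 17 probe sets of the 10 genes; filled points passed the test and grey points lay below the filter. Both Nrarp probe sets, Hey1 and the tested Hes5 probe set lie left of 0 with intervals that exclude it, and passed. The intervals of Hes1, Hey2, Lfng 1420643_at, Heyl 1419302_at and Heyl 1419303_at also exclude 0, but these did not pass. The 3 Heyl probe sets sit together between -0.52 and -0.31, and none of them passed.

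Nrarp had the strongest evidence of a difference. Its protein is short, carries ankyrin repeats and acts in a negative feedback loop on Notch. At the brighter probe set (1417985_at) it read 690.1 and 641.7 in mutant kidneys, against 1929 and 1738 in wild-type kidneys. At the dimmer one (1417986_at) it read 220.5 and 171.8 in mutant kidneys, against 973.3 and 965.0 in wild-type kidneys. The groups lay far apart at both. The log2 differences were -1.44 ± 0.11 and -2.23 ± 0.17 (SE), which are 2.71-fold and 4.67-fold lower in mutant kidneys (limma adjusted p = 0.000230 and 0.000206). The probe sets carry the same source sequence in the annotation but gave different sizes. The log2 ratio of the brighter to the dimmer was 1.58 and 1.81 on the mutant arrays, against 0.98 and 0.84 on the wild-type arrays. An exact permutation test of 2 arrays against 2 (two-sided) gave 0.33 for this ratio, the smallest p it can give. The fall at the brighter probe set was called under all 15 alternatives, with adjusted p up to 0.0213.

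The Hes genes went different ways: Hes5 fell, Hes1 was lower and Hes6 higher in mutant kidneys by amounts that did not pass. Hes5, a Notch target of neural progenitors and of the forming nephron in the mouse, was near the bottom of the signal scale in mutant kidneys. At 1423146_at it read 25.98 and 76.31 in mutant kidneys, against 191.3 and 202.3 in wild-type kidneys. The mutant arrays differed from each other by much more than the wild-type arrays did, and both lay below the lowest mean level kept, 94.2. The log2 difference was -1.77 ± 0.42 (SE), 3.42-fold lower in mutant kidneys (limma adjusted p = 0.0320), and the added 16 sets its size: with 1 it was -2.11 and with 64 it was -1.21. A second probe set (1456010_x_at), whose name ending marks probes that can match other genes, read 45.11 and 24.61 in mutant kidneys, against 195.8 and 156.0 in wild-type kidneys. It lay below the filter with all 4 arrays, and without a filter its log2 difference was -1.94 (limma adjusted p = 0.0481). Without mutant replicate 1 or mutant replicate 2 it lay above the filter, with log2 differences of -2.23 and -1.64. It did so only through its wild-type arrays, so these values lend the fall no support. The groups did not overlap at either probe set. The call at the first was lost without a filter (adjusted p = 0.0903), without the intensity trend (0.1002) and without mutant replicate 1 (0.0678). Without either wild-type array, or with the stricter filter, the probe set fell below the filter.

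Hes1, the Hes gene that most cell types express, showed a small and even difference. It read 1151 and 1143 in mutant kidneys, against 1361 and 1364 in wild-type kidneys. Arrays of a genotype were close together and the groups did not overlap. The log2 difference was -0.25 with an interval from -0.47 to -0.02 (unadjusted p = 0.0365, limma adjusted p = 0.162), and it stayed between -0.27 and -0.23 under 15 alternatives without being called. Hes6 differs in role from its relatives, since its protein can block Hes1 and favours differentiation of neurons and muscle in the mouse. At 1436050_x_at it read 1111 and 1097 in mutant kidneys, against 951.2 and 914.7 in wild-type kidneys. At 1452021_a_at it read 892.2 and 651.5 in mutant kidneys, against 639.8 and 667.6 in wild-type kidneys. The groups were apart at the first probe set and overlapped at the second, where mutant replicate 1 was high. The log2 differences were 0.24 and 0.22 (limma adjusted p = 0.201 and 0.465), and the second was -0.0044 without mutant replicate 1.

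Skeletal muscle and neural markers are given beside Hes6 and Hes5 because those cells express them. Of 8 tested skeletal muscle markers, 7 were higher and 0 lower by limma, also at an unadjusted p under 0.05, and their summed signal was 7791 and 7493 in mutant kidneys, against 1922 and 1385 in wild-type kidneys. Myf5 alone of the 9 lay below the filter, at 6.57 and 2.18 in mutant kidneys, against 19.43 and 25.69 in wild-type kidneys. Myog and Myl1 had wild-type means of 83.17 and 73.1 and passed the filter only through their mutant arrays. Of the 4 tested neural and Schwann cell markers, Fabp7 was lower and 0 were higher by limma, with 1 lower and 1 higher at an unadjusted p under 0.05. Their sums were 792.6 and 775.4 in mutant kidneys, against 903.8 and 685.8 in wild-type kidneys, and the groups overlapped. Fabp7 had a mutant mean of 90.69 and passed the filter only through its wild-type arrays. The part of muscle or nerve cells in the Hes values was not tested.

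None of the Fringe genes was called. Lfng and Mfng proteins make Notch more responsive to Delta and less to Jagged ligands. Lfng at 1420643_at read 342.3 and 349.9 in mutant kidneys, against 578.5 and 420.9 in wild-type kidneys. Both mutant values lay below both wild-type values, but the wild-type arrays were far apart. The log2 difference was -0.49 with an interval from -0.92 to -0.06 (unadjusted p = 0.0292, limma adjusted p = 0.141). It was called only without wild-type replicate 2 (log2 difference -0.72, adjusted p = 0.0272 by limma), and was -0.27 without wild-type replicate 1. The other Lfng probe set (1449943_at) was near the bottom of the scale, at 20.72 and 12.58 in mutant kidneys, against 18.20 and 8.83 in wild-type kidneys, and was not tested.

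Mfng read 459.2 and 541.7 in mutant kidneys, against 484.2 and 439.7 in wild-type kidneys. The groups overlapped, and the log2 difference of 0.11 had an interval from -0.25 to 0.47 (limma adjusted p = 0.727). Its sign turned without mutant replicate 2 (-0.007). Rfng, the third Fringe, had probe sets with opposite signs. At 1460704_at it read 805.6 and 635.0 in mutant kidneys, against 598.3 and 635.4 in wild-type kidneys, so the groups overlapped. At 1421160_a_at it read 357.5 and 377.1 in mutant kidneys, against 460.9 and 413.5 in wild-type kidneys, and the mutant values were the lower ones. The log2 differences were 0.21 and -0.24 (limma adjusted p = 0.440 and 0.4005), and over both probe sets the mean difference was -0.015. No direction can be given for Rfng.

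Paralogues were compared within each array, where the scaling of an array cancels, in 9 ratios at the brightest probe sets. Each ratio was tested by an exact permutation of 2 arrays against 2 (two-sided), which cannot give a p below 0.33, so the values are a description. The log2 ratio of Hey1 to Heyl was -0.61 and -0.75 on the mutant arrays, against -0.06 and 0.04 on the wild-type arrays. That of Hey1 to Hey2 was 1.99 and 1.95 on the mutant arrays, against 2.56 and 2.50 on the wild-type arrays. Both moved by more than the arrays of a genotype differed (p = 0.33 each, exact permutation), while the ratio of Hey2 to Heyl overlapped between genotypes. Among the Hes genes all 3 ratios were apart (p = 0.33 each, exact permutation). That of Hes1 to Hes6 was 0.05 and 0.06 on the mutant arrays, against 0.51 and 0.57 on the wild-type arrays. The ratios with Hes5 use its mutant readings of 25.98 and 76.31, under the lowest mean level kept, 94.2. Hes5 passed the filter only through its wild-type arrays, and the added 16 affects the size of its ratios. Nothing is therefore concluded from the ratios with Hes5. Lfng relative to Mfng stood at -0.41 and -0.61 on the mutant arrays, against 0.25 and -0.06 on the wild-type arrays, without overlap. Lfng relative to Rfng was apart too, and Mfng relative to Rfng overlapped. How many ratios of other gene pairs are apart was not computed, while 54.1% of all tested probe sets did not overlap between genotypes. The 9 ratios share genes, so their number apart is no result about the members. A ratio of this kind shows unequal change only.

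**Figure D3:**
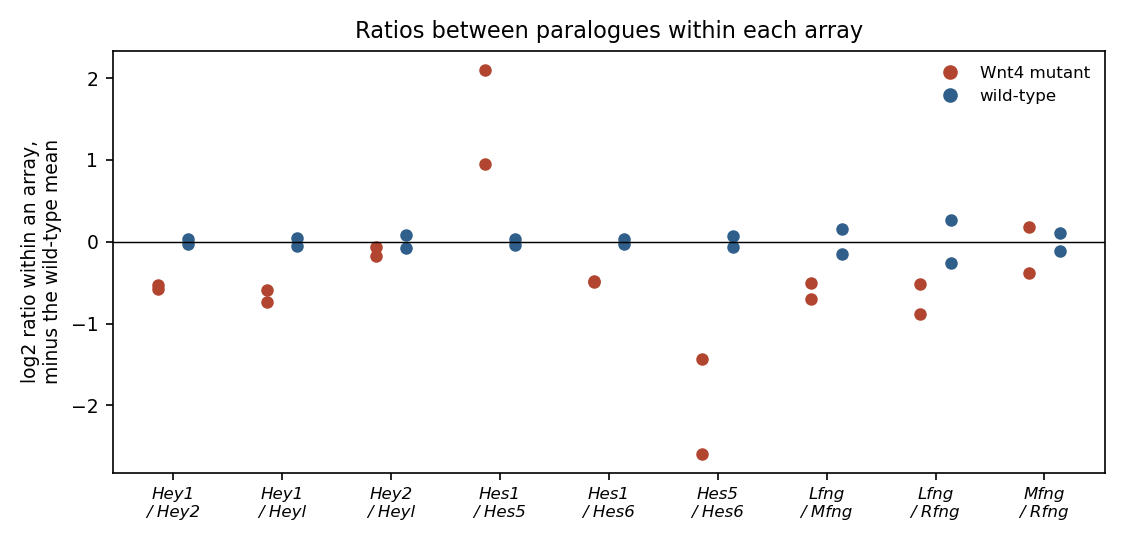
Log2 ratio between 2 paralogues within each array, after the wild-type mean of that ratio is taken off, for 9 pairs, with mutant arrays on the left and wild-type arrays on the right of each pair (n = 2 each). The pairs Hey2 to Heyl and Mfng to Rfng overlap between genotypes, and the other 7 pairs do not. The pairs share genes, and the share of other gene pairs that do not overlap was not computed. Pairs with Hes5 rest on mutant signals near the bottom of the scale.

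The rest of the Notch pathway was described from 4 lists. All 9 receptors and ligands were tested, and Dll1, Jag1 and Notch1 were lower and 0 higher by limma (3 lower and 0 higher at an unadjusted p under 0.05), with a list median log2 difference of -0.15. The ligand gene Dll1 read 386.9 and 436.8 in mutant kidneys, against 1544 and 1618 in wild-type kidneys, 3.74-fold lower (adjusted p = 9.22e-05). Jag1, also a ligand gene, read 896.4 and 872.9 in mutant kidneys, against 2948 and 3360 in wild-type kidneys, 3.51-fold lower (adjusted p = 6.07e-05), though its other 2 tested probe sets did not pass. Side by side, the log2 differences were -1.90 for Dll1 and -1.81 for Jag1, -1.44 and -2.23 at the Nrarp probe sets, -1.77 for Hes5, -1.14 for Hey1 and -0.25 for Hes1. The receptor gene Notch1 was 1.55-fold lower (adjusted p = 0.0187), a call not made at its other probe set and lost without mutant replicate 1 (0.103) and without the intensity trend (0.108). Notch2, Notch3, Notch4, Dll3, Dll4 and Jag2 did not pass.

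Of 21 tested genes that process, sort or sugar-modify receptors and ligands, limma called 0 lower and 2 higher, with 2 lower and 9 higher at an unadjusted p under 0.05 and a median log2 difference of 0.22. The called ones were Mib1, a ubiquitin ligase that acts on Notch ligands (1.38-fold higher, adjusted p = 0.0375), and Neurl1a, another ubiquitin ligase (1.53-fold, adjusted p = 0.0283). Neither was called at any of its other probe sets, while Aph1b and Dtx2, not called at their brightest probe set, each had another that was called, lower for Aph1b and higher for Dtx2. Pofut1, the enzyme that adds the fucose on which Fringe acts, read 1523 and 1369 in mutant kidneys, against 1293 and 1022 in wild-type kidneys, and did not pass (adjusted p = 0.171 by limma). Pofut1, Aph1b and Dtx2 were singled out after their values were seen. The count of higher genes was 7 without wild-type replicate 1, 0 without mutant replicate 1 and 1 without mutant replicate 2. Mib1 was not among the 7 (adjusted p = 0.0606 by limma), and neither Mib1 nor Neurl1a was the 1 (0.129 and 0.123).

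Of 18 tested genes of the nuclear complex and its corepressors, limma called 0 lower and 2 higher, with 0 lower and 4 higher at an unadjusted p under 0.05 and a median log2 difference of 0.13. Rbpj, the DNA-binding partner of Notch, read 2146 and 2424 in mutant kidneys, against 1756 and 1626 in wild-type kidneys, 1.35-fold higher (adjusted p = 0.0330), and its 2 other probe sets did not pass. Tle2, a corepressor of the Groucho family that Hes proteins recruit, was 1.504-fold higher (adjusted p = 0.0405). The count of higher genes was 6 without wild-type replicate 1, with Tle2 not among them (adjusted p = 0.0628 by limma), and 0 without either mutant array. Among other repressors of the Hes type and the Id genes, 5 of 10 were tested. Id1 and Id4, whose products bind helix-loop-helix proteins and keep them off DNA, were 1.47-fold and 1.46-fold lower (limma adjusted p = 0.00624 and 0.0192) and 0 were higher (3 lower and 0 higher at an unadjusted p under 0.05). Without mutant replicate 2 both calls were lost (0.0533 and 0.0746), and without mutant replicate 1 that of Id4 was (0.0758). A further probe set of Id2, not called at its brightest, was called lower and was singled out after its value was seen. Hes2, Hes3 and Hes7, the remaining Hes genes of the array, lay below the filter with signals between 14.62 and 72.08 on all 4 arrays. With 1 probe set per gene, 5.82% of 13432 tested genes were lower and 6.70% higher, which is the background for these counts.

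**Figure D4:**
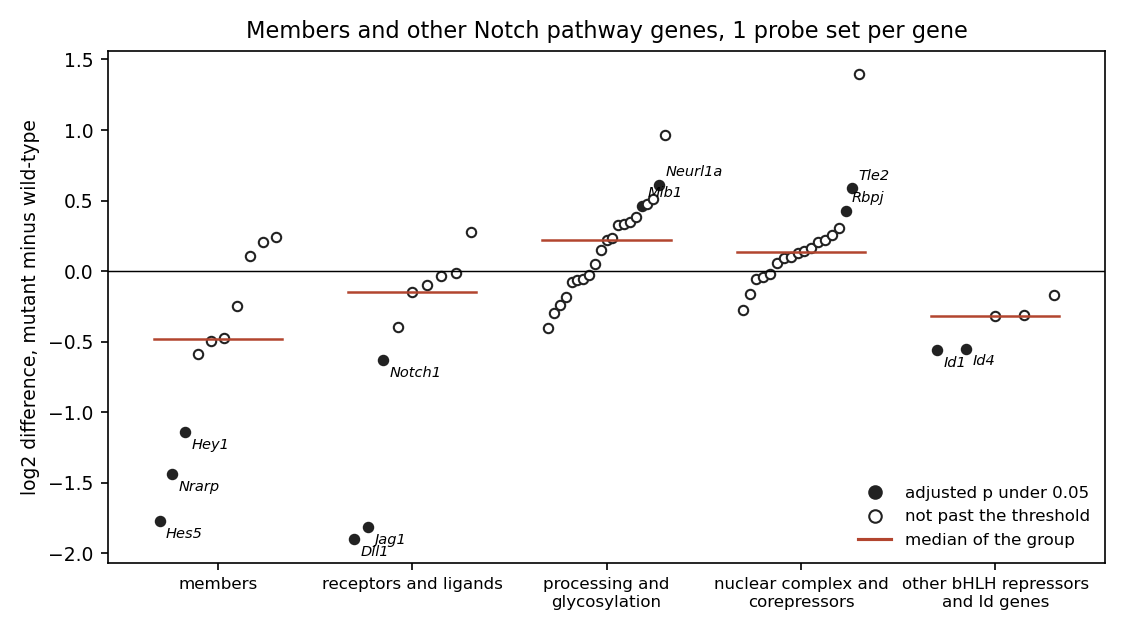
Log2 difference, Wnt4 mutant minus wild-type, for the 10 genes described here and for 4 lists of other Notch pathway genes, 1 probe set per gene; filled points passed the test and are named, and red lines are medians of the groups. The medians were -0.48, -0.15, 0.22, 0.13 and -0.32 from left to right.

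The genes with the most similar pattern over the 4 arrays were found by the root mean square difference of log2 values, each gene centred on its own mean, over 13431 other genes. Nearest to Hey1 were Smtnl2, Hddc3 and Rufy2, at 0.032, 0.050 and 0.051 log2 units, and 25 genes lay within 0.1. Nearest to Nrarp were Ccdc69, Pdzk1ip1 and Cftr, at 0.029, 0.049 and 0.054, with 14 genes within 0.1. For Hes5 the nearest were Selplg, Acaa1b and Cfb, at 0.12, 0.13 and 0.14, and 0 genes lay within 0.1. The measure rests on 4 arrays, so it gives a likeness of these values and no more.

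**Figure D5:**
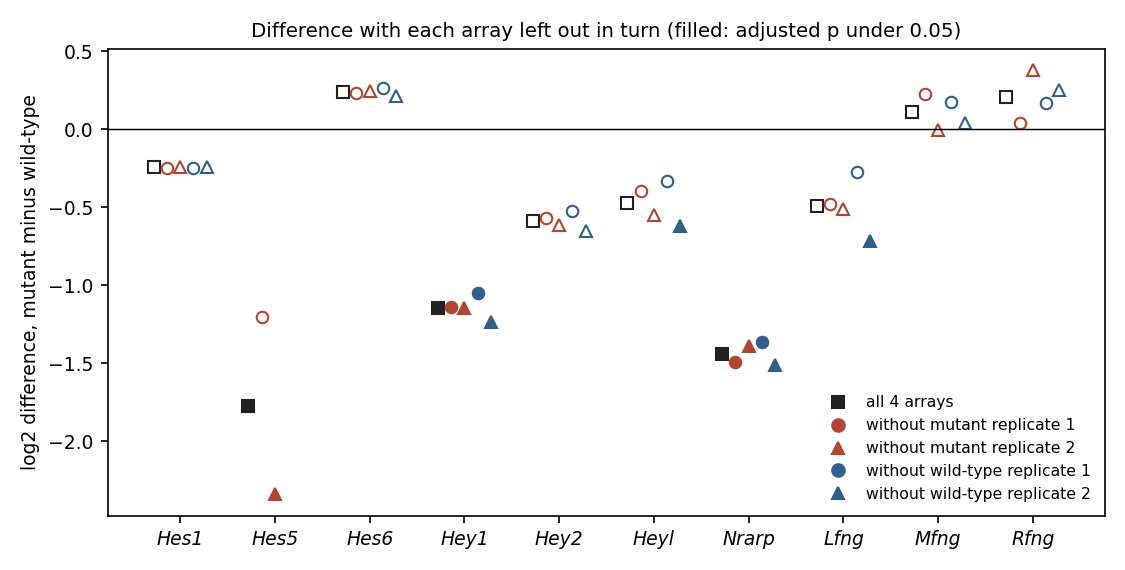
Log2 difference, Wnt4 mutant minus wild-type, of each of the 10 genes with all 4 arrays and with each array left out in turn; filled symbols had an adjusted p under 0.05. Hey1 and Nrarp are filled throughout, Hes5 is open without mutant replicate 1 and absent without a wild-type array, and Heyl and Lfng are filled only without wild-type replicate 2.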

How the data were processed

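Affymetrix Mouse430_2 arrays were hybridised with RNA amplified in 1 round, per the labels' protocols. The authors deposited signal intensity per probe set on a linear scale; GCOS is the only tool in the submitters' processing notes, and the summary algorithm is not given in the sources used here. Depth has no meaning for arrays, and their number limits the precision. Genes were named through the platform annotation, with identifiers matched to RefSeq (assembly GRCm38.p6) for 34754 of 34958 probe sets with a single gene; 932 had several genes and 9211 none. AFFX control probe sets (64) and the lowest 40% by mean log2(signal + 16) were left out. limma 3.58.1 in R 4.3.3 fitted the 2 groups (lmFit, eBayes with an intensity trend; prior degrees of freedom 6.16). Each gene was represented by the brightest of its tested probe sets. The fit was tested on simulated data. Named genes were the 10 members, Wnt4, called genes of each list with the smallest p (at most 4) and the 3 nearest genes of each called member. The members and lists were chosen with earlier results of these data known. Alternatives changed scaling, pseudocount, filter, variance model, probe sets, replicate block and arrays included.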

Additional observations from a re-analysis of the deposited data

How the results depend on the processing

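At the brightest probe set, Hes1, Hey1, Hey2, Hes6 and Nrarp kept their direction and their side of the threshold under every alternative that tested it. The 4 calls among member probe sets became 3 or 4 under the alternatives that kept all 4 arrays, with 0 higher. Without a filter the number stayed 4 only through a swap between the Hes5 probe sets. There 1456010_x_at was called (limma adjusted p = 0.0481) and 1423146_at was not (0.0903). For Hes5 the log2 difference was -1.77 both without a filter and without the intensity trend, no longer past the threshold in either; leaving out a mutant array gave -2.34 to -1.20. Leaving out each array gave -0.62 to -0.33 for Heyl, -0.72 to -0.27 for Lfng and -0.007 to 0.22 for Mfng. The mean over both probe sets turned the sign of Rfng (-0.015). Without the trend 2 receptors and ligands were called lower. Over all probe sets, 433 were called lower and 425 higher without the trend (3.18%), and 4.42% were called without a filter, where more dim probe sets were tested. Leaving out each array gave 871 to 1903 lower and 701 to 2105 higher (5.82% to 14.8%). Called higher among processing genes were 1 with quantile normalization, 1 without a filter, 0 without the trend and 0 to 7 with an array left out (0 to 1 lower). Called higher among nuclear genes were 0 without a filter, 0 without the trend, 1 with the replicate block and 0 to 6 with an array left out. Called lower among other repressors and Id genes were 0 without the trend and 0 to 3 with an array left out. Other causes were not tested. The deviations of same-numbered arrays from their group means had a correlation of -0.017. With 2 arrays per genotype this value is the same for each number by construction, and it cannot settle whether the numbers pair the arrays. With the replicate block 1409 probe sets were lower and 1504 higher, and the 4 member calls remained 4 in number. Where an arm had 1 array, the spread came from the other arm and, through the variance model, from other probe sets of similar signal. Dim probe sets, such as those of Hes5 and Hey2, have wide intervals and limit what can be said of them. For Hey2 the width came with the intensity trend (SE 0.254 with it and 0.123 without).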
